A study of Homo sapiens with 12 samples.

Results

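The genes of chromosome 9q21 to 9q31 described here were the protein-coding genes of chromosome 9 that start between 86 and 110 Mb and had a mean normalized count above 30 over all 12 libraries. TGFBR1, ROR2, ABCA1 and collagen genes were left out by name. Of 92 protein-coding genes listed in this window, 21 had a mean normalized count of 30 or less, 2 more were left out by name, and 69 were members, of 15601 genes measured in all. The members were thus selected on their mean normalized count, and the window was proposed with earlier results of these data in view, so those counts are given as a description only.

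Neighbouring genes on a chromosome usually have unrelated functions and are controlled by their own promoters. When the number of copies of a chromosome or arm differs between cell populations, the transcript levels of many of its genes tend to differ in parallel, and this is known as a gene dosage effect, while single genes can escape it. Cancer cell lines, including those of hepatocellular carcinoma (HCC), often carry unequal chromosome copy numbers and can drift in culture. DNA copy number was not measured in the data used here.

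RNA was taken from SNU449, a human HCC cell line with a mesenchymal-like phenotype, and sequenced from the 3′ end of transcripts with QuantSeq. The 4 groups of 3 libraries were SNU449 control cells (WT, naive), SNU449 cells made resistant to Regorafenib (WT, Regorafenib long-term), and the same pair for cells lacking the receptor tyrosine kinase Axl (Axl KO, naive and Axl KO, Regorafenib long-term), here called SNU449-Axl-. Axl was removed by CRISPR/Cas9 editing, and whether the line is 1 clone is not given in the sources used here. Regorafenib (Rego) is a multikinase inhibitor used in HCC, and resistant cells were selected with stepwise doses up to 2 times the IC50, the concentration of half-maximal inhibition. All groups share the SNU449 background and the same base medium. The authors' methods do not say whether Rego was in the medium of resistant cells when RNA was taken. The libraries of each group are described as technical triplicates. Each group is therefore taken as 1 cell population, and p-values measure only the spread between its libraries. SNU449 control replicate 3 stood apart on chromosome 9, as given below, so 1 population is an assumption for that group. Differences between populations that arose by chance during editing or selection cannot be told apart from effects of Axl loss or of Rego.

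AXL itself read 727, 941 and 715 in SNU449 control cells and 35, 53 and 33 in SNU449-Axl- control cells, and 1237, 815 and 1271 against 50, 38 and 52 in the Rego-resistant pair. The libraries matched their Axl labels, with a log2 difference of -4.29 ± 0.235 (SE, limma adjusted p = 2.16e-09) in control cells and -4.52 (adjusted p = 1.27e-09) in resistant cells. These are deposited library values, a variance-stabilized expression level returned to a linear scale after the effect of preparation date had been removed. They are not read counts, and the sequencing depth of each library is unknown. All 6 mesenchymal markers looked for were listed, the most abundant at a mean count of 18900. Of hepatocyte markers 3 of 10 were listed, the most abundant being FGB at a mean count of 104, and ALB was not. Of epithelial markers 2 of 4 were listed, KRT8 and KRT18 at mean counts of 267 and 1090, and CDH1 and EPCAM were not. Of leukocyte markers 2 of 5 were listed, with a highest mean count of 5.34, and 0 of 4 endothelial markers were.

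Promoters are shown for 3 members that mark the range of responses below: CTSL and S1PR3, which went against the region in the Axl comparison of control cells, and CTNNAL1, which was among the largest falls. Each run is the 250 bases before the start of a RefSeq transcript in GRCh38.p14, at chr9:87725869-87726118 on the plus strand for CTSL, chr9:88990613-88990862 on the plus strand for S1PR3 and chr9:109013500-109013749 on the minus strand for CTNNAL1. Capitals mark the GC box GGGCGG and the CCAAT box CCAAT, searched on both strands. No matches of different motifs overlapped in these runs. The CTSL transcript starts 2068 bases inside the gene's outermost annotated start.

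CTSL: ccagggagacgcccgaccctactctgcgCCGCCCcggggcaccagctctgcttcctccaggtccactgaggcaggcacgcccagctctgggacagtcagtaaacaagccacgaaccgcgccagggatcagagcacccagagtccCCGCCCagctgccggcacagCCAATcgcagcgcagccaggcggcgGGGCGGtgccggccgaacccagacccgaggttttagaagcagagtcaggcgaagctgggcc

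S1PR3: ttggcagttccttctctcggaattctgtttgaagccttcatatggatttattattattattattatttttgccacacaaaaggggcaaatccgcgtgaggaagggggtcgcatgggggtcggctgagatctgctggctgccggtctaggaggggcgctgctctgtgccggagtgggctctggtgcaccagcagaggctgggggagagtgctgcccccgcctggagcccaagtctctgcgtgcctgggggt

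CTNNAL1: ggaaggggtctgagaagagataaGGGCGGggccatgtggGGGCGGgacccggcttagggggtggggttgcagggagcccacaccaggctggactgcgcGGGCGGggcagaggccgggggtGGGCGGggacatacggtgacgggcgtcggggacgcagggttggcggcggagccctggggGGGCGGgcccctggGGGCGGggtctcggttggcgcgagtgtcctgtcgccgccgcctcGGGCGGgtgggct

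The CTNNAL1 run held 7 GC boxes, that of CTSL held 3 GC boxes and 1 CCAAT box, and that of S1PR3 held 0 of either. Of the 5 members above the median of all genes in the Axl comparison, 4 held a GC box in these windows. Promoters were found for 61 members. A GC box stood in 78.7% of them against 69.8% of 7531 promoters of expressed protein-coding genes of all chromosomes, and a CCAAT box in 49.2% against 36.1%. The TATA box TATAAA was in 0 of the 61 and in 4.87% of all, and the AP-1 element TGANTCA in 3.28% against 3.39%. Median GC content was 66.8% in member promoters and 65.2% in all. A match describes letters only and says nothing about binding.

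The 69 members stood lowest in SNU449-Axl- control cells. For each library, the log2 value of each member was set against that gene's mean over the 12 libraries, and the median over the members was taken. It was -0.39, -0.34 and -0.20 in SNU449-Axl- control cells, 0.03, -0.02 and 0.12 in Rego-resistant SNU449 and 0.02, 0.02 and 0.19 in Rego-resistant SNU449-Axl-. The SNU449 control libraries gave 0.31, 0.34 and -0.12. Every library of SNU449-Axl- control cells was below every other library. The group means were 0.18 ± 0.26 (SD, n = 3) for SNU449 control, 0.04 ± 0.072 for Rego-resistant SNU449, -0.31 ± 0.098 for SNU449-Axl- control and 0.08 ± 0.099 for Rego-resistant SNU449-Axl-.

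Replicate 3 of SNU449 control stood apart from its own group on this chromosome. Its median over all expressed chromosome 9 genes was 0.41 below the mean of the other 2 libraries (a gap of -0.41), the largest such gap among all autosomes and libraries, and the next for another chromosome was 0.22, for chromosome 15 in the same library. Its AXL level was that of the other SNU449 libraries. The libraries are described as technical triplicates, yet this library differed from its group most on chromosome 9. Whether it came from the same cell population was not tested. After the authors' removal of the preparation effect, the mean over the 4 libraries of a replicate number was nearly the same for each number (median deviation 0.00126 on the log2 scale), so a library that stands low is balanced by others of its number. Replicate 3 was the highest library of the members in each of the other 3 groups. The counts and medians of members that rest on this library are therefore given with and without it, apart from the solved mean counts further on, which pool the libraries of a group.

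**Figure D1:**
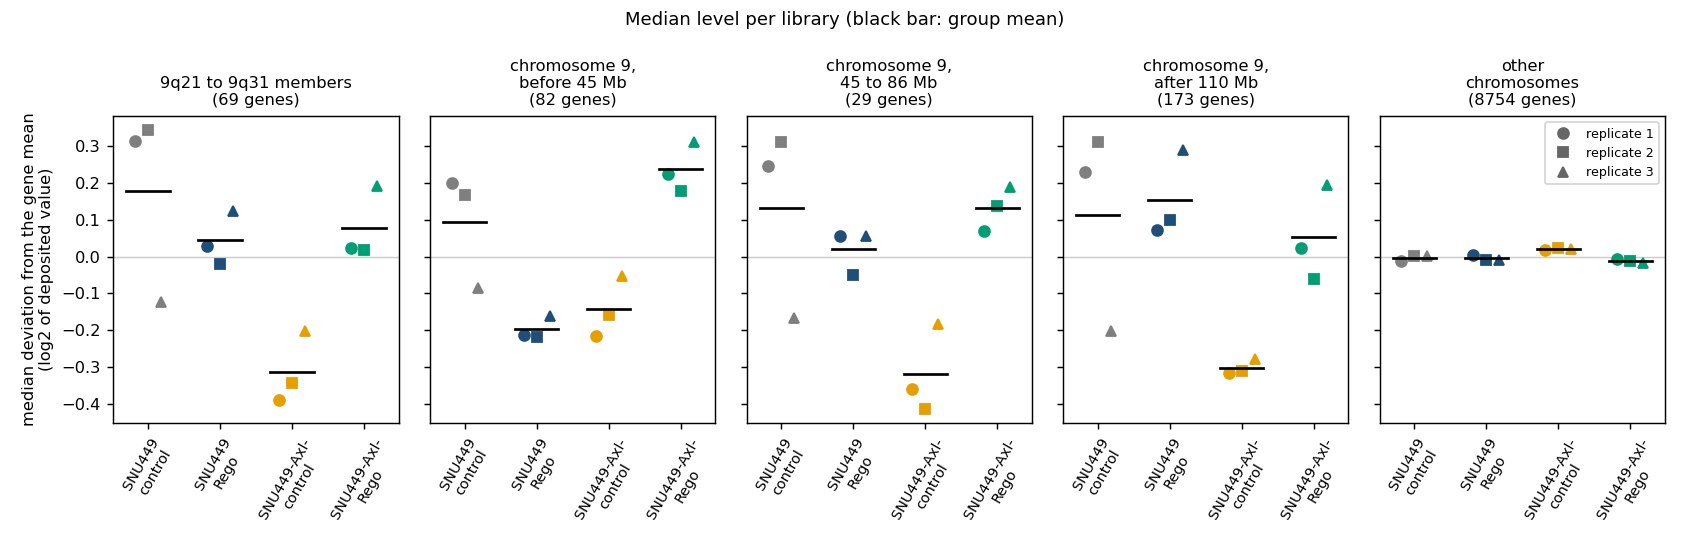
Median deviation from the gene mean over all libraries (log2 of the deposited value, vertical axis) in each of the 12 libraries, for the 69 members, for expressed genes of the rest of chromosome 9 in 3 stretches and for 8754 expressed genes of other chromosomes. Points are libraries and bars are group means of 3; the members' SNU449-Axl- control libraries, at -0.39 to -0.20, are below all others, SNU449 control replicate 3 lies at -0.12, and the other chromosomes stay within 0.02 of 0.

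Loss of Axl in control cells went with lower levels across the region. The median log2 difference of the members, SNU449-Axl- control minus SNU449 control, was -0.47, with quartiles of -0.69 and -0.30, against 0 over all genes tested. Of the 69, 64 lay below the median of all genes and 5 above it. In limma, 15 members fell at a Benjamini-Hochberg adjusted p below 0.05 over all genes and 0 rose, where 3.43% of all genes fell and 4.03% rose. At an unadjusted p below 0.05 the count was 38 lower, against 10.3% of all genes in that direction. The 3 libraries of one group were all below the 3 of the other for 37 of 69 members (53.6%), against 13.4% of all genes in that direction. All 3 SNU449-Axl- control libraries were below the other 9 for 18 members (26.1%), against 2.91% of all genes.

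Without SNU449 control replicate 3 the median was -0.68, 67 members were below 0 and 28 were called lower, where 3.37% of all genes were. All 3 SNU449-Axl- control libraries were then below the other 2 SNU449 control libraries for 57 members (82.6%, against 18.8% of all genes) and below the 8 other libraries for 24 (34.8%, against 3.69%). The preparation effect had been removed with SNU449 control replicate 3 present, so leaving it out does not undo its influence on the other libraries. The count called rested on single libraries in the other direction too. It was 5 without SNU449 control replicate 1, 6 without replicate 2, 6 without SNU449-Axl- control replicate 1 and 4 without replicate 2. PGAP4 and CARD19 were the 2 of the 15 that kept the call whichever of the 12 libraries was left out.

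PGAP4, a Golgi enzyme that modifies glycosylphosphatidylinositol anchors, read 193, 213 and 182 in SNU449 control cells and 79, 83 and 91 in SNU449-Axl- control cells. The groups did not overlap, and the fall was the largest of any member at -1.21 ± 0.181 (log2 difference ± SE, adjusted p = 0.000439). CARD19, a protein with a caspase recruitment domain, read 326, 350 and 259 against 161, 139 and 154 and fell by 1.03 (SE 0.186, adjusted p = 0.00205). In both genes the SNU449-Axl- control libraries were also below all 6 Rego-resistant libraries.

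GOLM1, a Golgi membrane protein used as a serum marker of HCC and the first member by position, read 483, 401 and 305 against 190, 201 and 233 (-0.91 ± 0.199, adjusted p = 0.00841). The call was lost without SNU449 control replicate 1 (adjusted p = 0.0746) or SNU449-Axl- control replicate 2 (0.0541). TBC1D2, a GTPase-activating protein for Rab7 in membrane traffic, read 250, 298 and 205 against 153, 117 and 82 (-1.12 ± 0.258, adjusted p = 0.0113), and lost the call without SNU449 control replicate 2 (0.0824) or SNU449-Axl- control replicate 2 (0.0533) or 3 (0.0924). CTNNAL1, the catenin-like protein alpha-catulin, read 679, 1008 and 631 against 288, 412 and 510 (-0.94 ± 0.256, adjusted p = 0.0305). None of these overlapped between the groups, but the gaps were narrower than in PGAP4, and CTNNAL1 lost its call without replicate 1 or 2 of either group (adjusted p 0.0574, 0.198, 0.176 and 0.0941).

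The other 10 members called lower were SPTLC1, a subunit of the enzyme that starts sphingolipid synthesis (-0.83, adjusted p = 0.00851), the zinc finger proteins ZNF189 (-0.86, 0.00811) and ZNF462 (-0.76, 0.0213), TEX10 of ribosome biogenesis (-0.83, 0.0143), the histone chaperone ANP32B (-0.78, 0.0269), the histone mark reader SPIN1 (-0.79, 0.0279), the RNA granule protein TDRD7 (-0.72, 0.0278), the antiviral signalling protein TRIM14 (-0.69, 0.0302), MSANTD3 (-0.87, 0.0365) and TSTD2 (-0.76, 0.0311). Each of them lost its call in 1 to 8 of the 12 fits that left out a library. ANP32B was the most abundant member, with a mean normalized count of 2038, and read 2661, 3184 and 1882 against 1403, 1279 and 1752. The next in abundance that were not called were RAD23B, a nucleotide excision repair factor, at -0.44 (adjusted p = 0.212), FAM120A at 0.06, SMC2, the condensin subunit, at -0.87 (0.051) and the membrane protein TMEM245 at -0.44 (0.298). Without SNU449 control replicate 3, RAD23B (-0.71, adjusted p = 0.0319) and TMEM245 (-0.76, 0.0474) were called too.

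**Figure D2:**
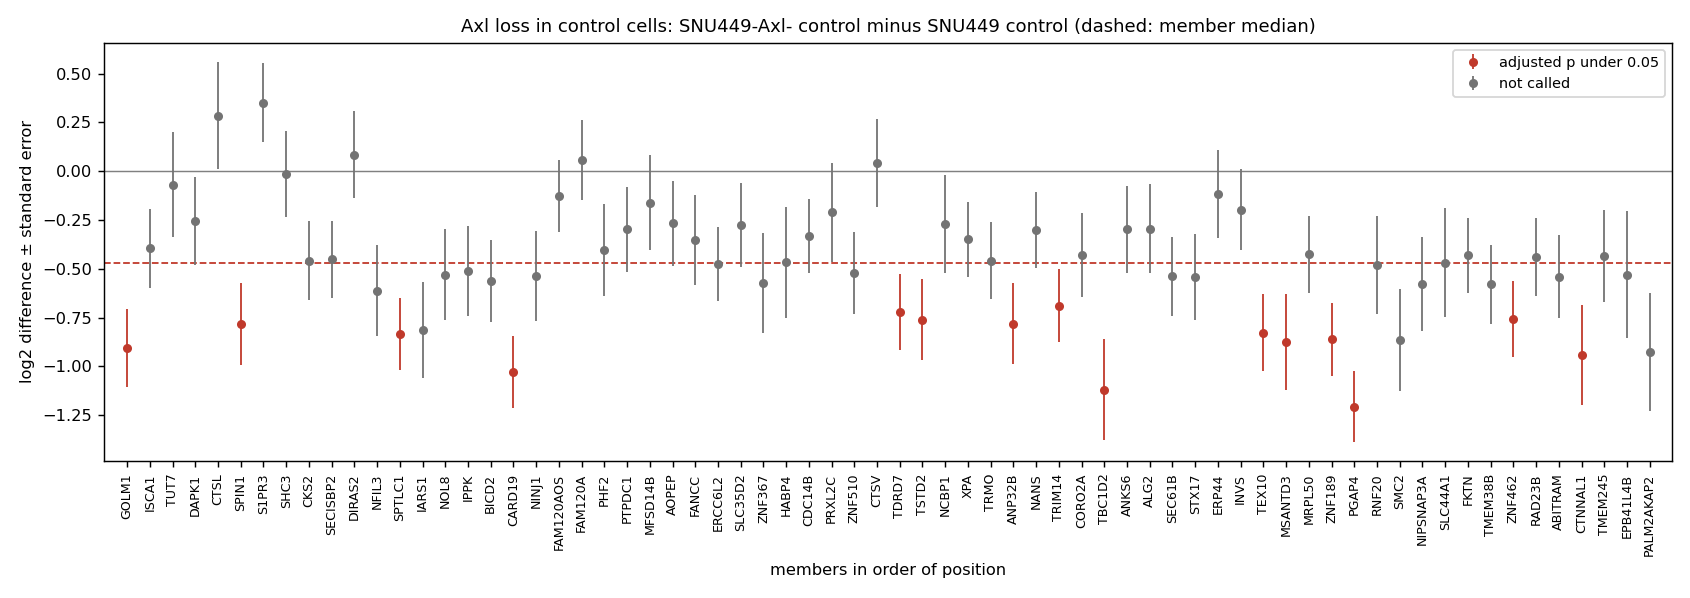
Log2 difference of 68 of the 69 members between SNU449-Axl- control and SNU449 control cells (vertical axis, ± SE), in order of position along the chromosome (horizontal axis). Red points are the 15 called by limma, all below 0, the dashed line is the member median of -0.47, and 5 members lie above 0.

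Rego resistance in SNU449-Axl- went with higher levels of the same region. This comparison shares the SNU449-Axl- control libraries with the one above, so the pair are not independent and are given side by side. The member median was 0.41, with quartiles of 0.24 and 0.61, against 0.01 over all genes, and 65 of 69 members were above the median of all genes. limma called 6 higher and 0 lower, where 2.54% of all genes rose and 1.81% fell. At an unadjusted p below 0.05, 32 were higher, against 9.94% of all genes. All 3 resistant libraries were above all 3 control libraries for 35 of 69 members (50.7%), against 15.0% of all genes in that direction.

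CORO2A, a coronin of the actin cytoskeleton, read 33, 38 and 29 in SNU449-Axl- control cells and 84, 69 and 82 in the resistant cells, the largest rise of a member in this comparison at 1.21 ± 0.213 (adjusted p = 0.00285). It was the 1 call of 6 that held in all 12 fits that left out a library, but the gene passed the mean count limit, at 33.97, only through the resistant groups, so the limit favoured its rise. DAPK1, a kinase that promotes cell death, read 91, 66 and 72 against 132, 223 and 146 (1.09 ± 0.226, adjusted p = 0.00866), and the call was lost without SNU449-Axl- control replicate 2 (0.0871) or the resistant replicate 2 (0.111). CARD19 rose by 0.80 (adjusted p = 0.0192), PGAP4 by 0.77 (0.0204), SECISBP2, needed to build selenocysteine into proteins, by 0.76 (0.034) and SPTLC1 by 0.69 (0.0392), and these 4 lost their calls in 4 to 7 of the 12 fits. PGAP4 in the resistant cells, at 147, 131 and 157, still lay below its values in SNU449 control cells. The count of members called was 12 without SNU449 control replicate 3, 1 without SNU449-Axl- control replicate 2, and 2, 1 and 2 without resistant replicates 1, 2 and 3.

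Rego resistance in SNU449 cells that kept Axl went with a member median nearer to 0, whose sign rested on single libraries. The member median was -0.14 against 0 over all genes, with 44 members below the median of all genes and 25 above it. It was -0.33 without SNU449 control replicate 3, which left 55 members below 0, but -0.01 without replicate 1 and 0.04 without replicate 2 of the same group, and -0.06 without resistant replicate 2. limma called 3 members higher and 1 lower, where 4.31% of all genes rose and 3.50% fell. PALM2AKAP2, an anchor of protein kinase A and the last member by position, read 349, 535 and 181 in control and 86, 66 and 113 in resistant cells, and fell by 1.89 on the log2 scale (SE 0.303, adjusted p = 0.000595), and this call held whichever library was left out. Those that rose were CORO2A (0.81, adjusted p = 0.0235), the adaptor SHC3 (0.78, 0.0371) and the Ras-like GTPase DIRAS2 (0.76, 0.0457). All 3 lost their calls without SNU449 control replicate 2 (adjusted p 0.0881, 0.143 and 0.126) or replicate 3 (0.116, 0.115 and 0.253), and without resistant replicate 2 (0.0788, 0.0739 and 0.0956) or 3 (0.166, 0.102 and 0.196). SHC3 and DIRAS2 also lost them without resistant replicate 1 (0.141 and 0.0803), and DIRAS2 in 9 of the 12 fits in all. CORO2A and DIRAS2, at mean counts of 33.97 and 38.73, passed the mean count limit only through the resistant groups. The limit therefore favoured their rise.

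Among Rego-resistant cells, the members' difference between those without and with Axl centred near that of all genes. The member median of SNU449-Axl- minus SNU449 was 0.08 against 0.01 over all genes, with 38 members above the median of all genes and 31 below it. The median took the values -0.06 to 0.10 when single libraries were left out. Only CTSL, the lysosomal protease cathepsin L, was called, with 1 member higher and 0 lower where 2.44% of all genes rose and 1.93% fell, and at an unadjusted p below 0.05 there were 6 higher, against 9.50% of all genes. It read 381, 318 and 511 in resistant SNU449 and 650, 1342 and 972 in resistant SNU449-Axl- (1.26 ± 0.276, adjusted p = 0.0133). The groups did not overlap, and the call was lost without resistant SNU449 replicate 1 (0.0653) or 2 (0.0993) or without resistant SNU449-Axl- replicate 2 (0.143) or 3 (0.0588).

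**Figure D3:**
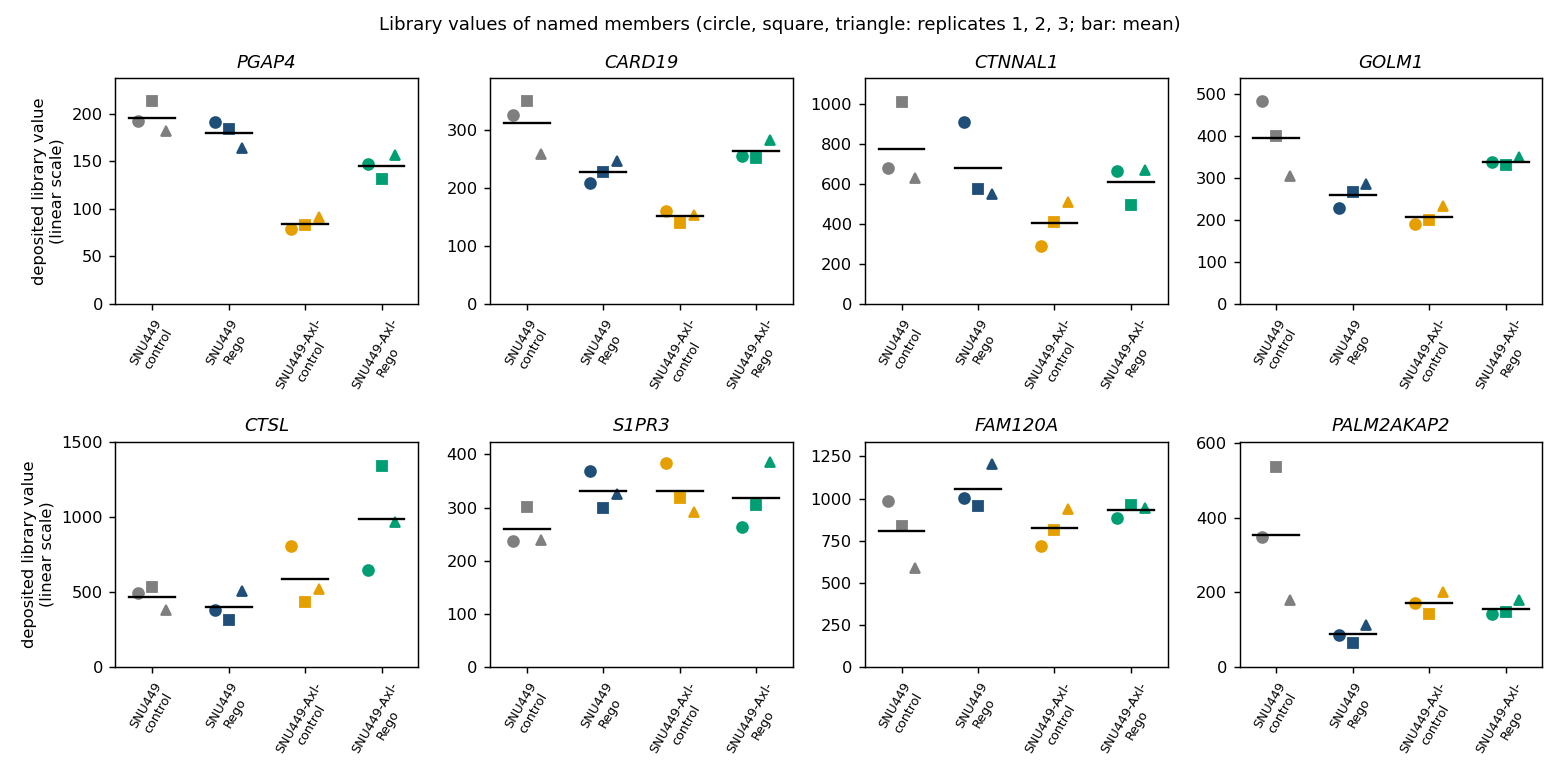
Deposited library values (vertical axis, linear from 0) of 8 members in the 4 groups. Symbols are replicates 1 to 3 and bars are means of 3 libraries; PGAP4, CARD19, CTNNAL1 and GOLM1 have their lowest mean in SNU449-Axl- control cells, CTSL, S1PR3 and FAM120A do not, and PALM2AKAP2 has its lowest in Rego-resistant SNU449.

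In the interaction, the Rego difference in SNU449 minus that in SNU449-Axl-, most members lay below the median of all genes. This equals the Axl difference in control cells minus that in resistant cells. It rests on the same libraries as the comparisons above, the low SNU449-Axl- control libraries among them, so it is not independent of those comparisons. The member median was -0.57 against -0.01 over all genes, with 61 members below the median of all genes and 8 above it. Medians of the rest of chromosome 9, given further on, were also below 0. limma called 6 members below 0 and 0 above, where 2.92% of all genes were lower and 2.95% higher, and 25 were lower at an unadjusted p below 0.05, against 9.65% of all genes. These were PALM2AKAP2 (-1.77, adjusted p = 0.0184), GOLM1 (-1.29, 0.00995), CARD19 (-1.24, 0.0083), SPTLC1 (-1.06, 0.0199), ZNF189 (-1.02, 0.029) and PGAP4 (-0.90, 0.0452). CARD19 and GOLM1 kept the call in every fit that left out a library. The count was 12 without SNU449 control replicate 3, and 3 without SNU449 control replicate 1, resistant SNU449 replicate 2, SNU449-Axl- control replicate 2 or resistant SNU449-Axl- replicate 3. PALM2AKAP2 differed from the other members of this set in that the large step was in SNU449, where GOLM1 and CARD19 had differences of -0.58 and -0.45 that were not called. In SNU449-Axl- their differences were 0.71 and 0.80, of which that of CARD19 was called.

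The variance-stabilized scale understates differences, most of all for genes of low count. Mean normalized counts per group were therefore solved from the authors' mean counts of the tables over different sets of libraries. These means average the same libraries, SNU449 control replicate 3 included, and come without an estimate of the spread between them. The authors describe removing the preparation date effect from the transformed values, not from mean counts. On this scale the median ratio over the members of SNU449-Axl- control to SNU449 control was 0.611, with quartiles of 0.5 and 0.725, against 1.01 over expressed protein-coding genes, and 65 of 69 ratios were below 1. The ratio for Rego resistance in SNU449-Axl- was 1.58 (quartiles 1.29 and 1.79), for Rego resistance in SNU449 0.884, and for Axl loss in resistant cells 1.07. PGAP4 had the lowest ratio for Axl loss in control cells, 0.328, from a mean count of 178 to 58.4. CORO2A had the highest for Rego resistance in SNU449-Axl-, 9.38, from 5.77 to 54.1. Its mean was 17.0 in SNU449 control cells and 59.1 in resistant SNU449 cells. PALM2AKAP2 had the lowest for Rego resistance in SNU449, 0.181. Because the quantity is RNA from bulk cultures, fewer cells with the usual level and less RNA in every cell cannot be told apart.

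Few members went against the region, and none did so past the test in the Axl comparison of control cells or in the interaction. In the Axl comparison of control cells the 5 above the median of all genes were S1PR3, a receptor for sphingosine 1-phosphate (0.35, adjusted p = 0.336), CTSL (0.29, 0.619), DIRAS2 (0.08, 0.88), the RNA-binding scaffold FAM120A (0.06, 0.918) and CTSV, a second lysosomal cathepsin (0.04, 0.948). They are named because they were the highest of 69 in this comparison, so the values describe them and test nothing. S1PR3 read 237, 302 and 239 in SNU449 control, 368, 299 and 326 in resistant SNU449, 383, 318 and 292 in SNU449-Axl- control and 263, 305 and 385 in resistant SNU449-Axl-. Its lowest values were in SNU449 control cells, the group where most members were high, and its difference stayed between 0.21 and 0.50 when single libraries were left out. FAM120A read 988, 840 and 590 in SNU449 control and 719, 816 and 940 in SNU449-Axl- control, so the groups overlapped widely. CTSL read 497, 535 and 381 against 807, 434 and 524, also with overlap.

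Without SNU449 control replicate 3, DIRAS2, FAM120A and CTSV turned to -0.18, -0.22 and -0.22, and S1PR3 (0.28) and CTSL (0.09) were the only 2 members above 0. CTSL turned to -0.05 and CTSV to -0.02 without SNU449-Axl- control replicate 1, and FAM120A to -0.07 without replicate 3 of that group. S1PR3 alone of the 5 stayed above 0 in every such fit. In the interaction, the 6 highest of the 8 above the median of all genes were DIRAS2 (0.52), S1PR3 (0.42), SHC3 (0.29), FAM120A (0.23), NCBP1, the large subunit of the nuclear cap-binding complex (0.22), and TUT7, which adds uridines to RNA (0.15), none of them called. FAM120A, NCBP1 and TUT7 changed sign when SNU449 control replicate 3 was left out (-0.04, -0.12 and -0.18), and DIRAS2, S1PR3 and SHC3 kept theirs in every such fit.

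The differences were spread along the whole window. Over windows of 7 neighbouring members, the running median of the Axl difference in control cells lay between -0.86 and -0.02 and that of Rego resistance in SNU449-Axl- between 0.16 and 0.65, with 0 changes of sign in 63 windows for either. For Rego resistance in SNU449 it changed sign at 12 places and for Axl loss in resistant cells at 8. Across the 69 genes, the Axl difference in control cells had a Pearson r of -0.35 and a Spearman rho of -0.33 with position, and -0.13 and -0.19 with the log2 mean count. These describe genes that share the same libraries. The 33 members on the plus strand had a median of -0.47 and the 36 on the minus strand -0.49.

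Of pairs of members that start within 1000 bases of each other on opposite strands there were 6. Both genes of each were below 0 in the Axl comparison of control cells, as were 92.8% of all members. Of the 5 pairs given here, the values were -1.21 and -0.48 for PGAP4 and RNF20, a histone H2B ubiquitin ligase, and -0.86 and -0.43 for ZNF189 and MRPL50, of the mitochondrial ribosome. They were -0.76 and -0.27 for TSTD2 and NCBP1. ALG2 and SEC61B, of glycosylation and of the translocon, had -0.30 and -0.54, and ERP44 and INVS -0.12 and -0.20. With Rego resistance in SNU449-Axl-, TSTD2 had 0.42 and NCBP1 -0.16, and both genes of the other pairs given here were above 0. Whether reads were counted by strand is not given in the sources used here. Of the 69 members, 18 overlap another listed gene, among them FAM120A and FAM120AOS, HABP4 and CDC14B, NANS and TRIM14, INVS and TEX10, and ABITRAM and CTNNAL1, and reads of such pairs may be divided between them uncertainly.

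**Figure D4:**
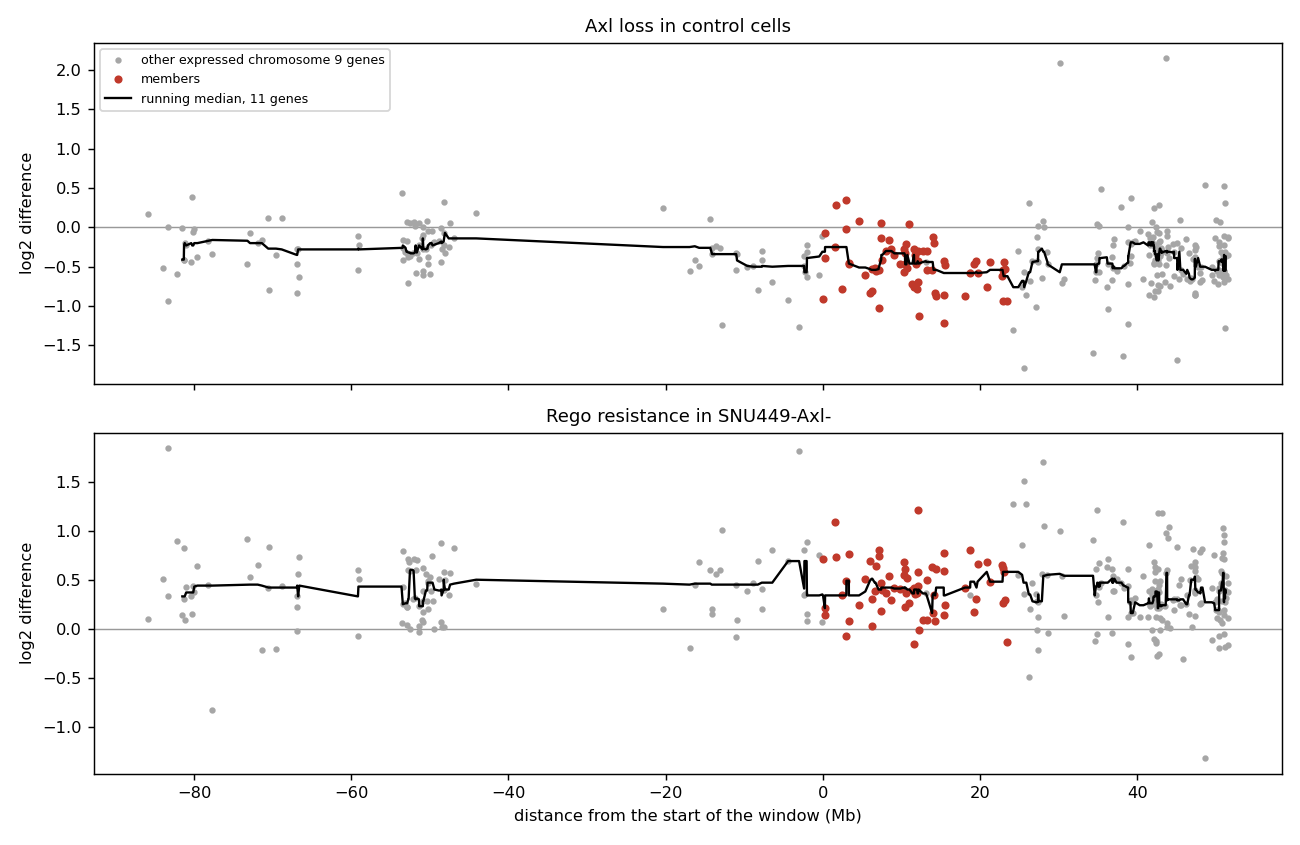
Log2 differences of expressed protein-coding genes along chromosome 9 (horizontal axis, distance from the start of the window in Mb) for Axl loss in control cells and for Rego resistance in SNU449-Axl- (vertical axes). Red points are the 69 members, grey points other genes and the line a running median of 11 genes, which lies below 0 in the upper panel and above 0 in the lower panel on both sides of the window as well as within it.

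The rest of chromosome 9 had medians of the same sign. In the Axl comparison of control cells the median was -0.23 for 82 expressed genes that start before 45 Mb, -0.42 for 29 between 45 and 86 Mb and -0.40 for 173 after 110 Mb, against 0.02 for 8754 expressed genes of other chromosomes. They were -0.36, -0.63 and -0.58 without SNU449 control replicate 3, against 0.03. For Rego resistance in SNU449-Axl- they were 0.40, 0.45 and 0.34, against -0.04. For the interaction they were -0.64, -0.38 and -0.31, against 0.03, where the members had -0.57. In these stretches limma called 21, 5 and 9 genes below 0 in the interaction, where 2.92% of all genes were. The interaction medians were -0.70, -0.64 and -0.50 without SNU449 control replicate 3, where the members had -0.75. The stretch before 45 Mb, on the short arm side, had another pattern over the groups. It was low in resistant SNU449 as well (-0.21, -0.22 and -0.16) and highest in resistant SNU449-Axl- (0.22, 0.18 and 0.31), with medians of -0.32 for Rego resistance in SNU449 and 0.43 for Axl loss in resistant cells, where the members had -0.14 and 0.08. Without SNU449 control replicate 3 the median for Rego resistance in SNU449 was -0.40 before 45 Mb, and after 110 Mb it turned from 0.07 to -0.16. These differences between stretches were not tested.

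Genes at the borders of the window differed among themselves. TXN, the antioxidant protein thioredoxin, is the first expressed protein-coding gene after the window and fell by 1.31 with Axl loss in control cells (SE 0.238, adjusted p = 0.00215) and rose by 1.27 with Rego resistance in SNU449-Axl- (adjusted p = 0.00429). NAA35, the last before it, had -0.11 and 0.07, neither called. Of the genes left out by name, TGFBR1, a TGF-β receptor, had -0.44 in the Axl comparison and ABCA1, a cholesterol exporter, -0.57, and neither was called there. ROR2, a Wnt receptor with a mean count of 16.49, fell by 1.07 (adjusted p = 0.00184). Members just above the mean count limit were PTPDC1 (31.13), ABITRAM (32.42) and CORO2A (33.97), with Axl differences of -0.30, -0.54 and -0.43. Genes just below it were CENPP (29.45), AUH (26.51) and FSD1L (23.76), with -0.04, -0.31 and -0.24. In solved mean counts, PTPDC1 and ABITRAM stood at 36.4 and 48.7 in SNU449 control and 20.9 each in SNU449-Axl- control. CORO2A passed the limit only through the resistant groups. So near the limit, a high level in some groups can decide which genes pass, and these values test nothing.

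Other chromosomes also had medians away from 0. Over the 22 autosomes, chromosome 9 had the lowest median for Axl loss in control cells, -0.38 over 355 expressed genes, next to -0.35 for chromosome 4 and -0.32 for chromosome 20, while chromosome 3 had the highest, 0.38. Leaving out SNU449 control replicate 3 gave -0.54, next to -0.37 and -0.28 for chromosomes 4 and 20 and 0.35 for chromosome 3. Chromosome 9 had the highest for Rego resistance in SNU449-Axl-, 0.38, next to 0.37 for chromosome 4. For the interaction, chromosome 4 had the lowest median, -0.49, next to -0.44 for chromosome 9, and chromosome 19 the highest, 0.69. Without SNU449 control replicate 3 these were -0.50, -0.63 and 0.73. Whether chromosome 9 differs from chromosomes 4 and 20 was not tested.

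**Figure D5:**
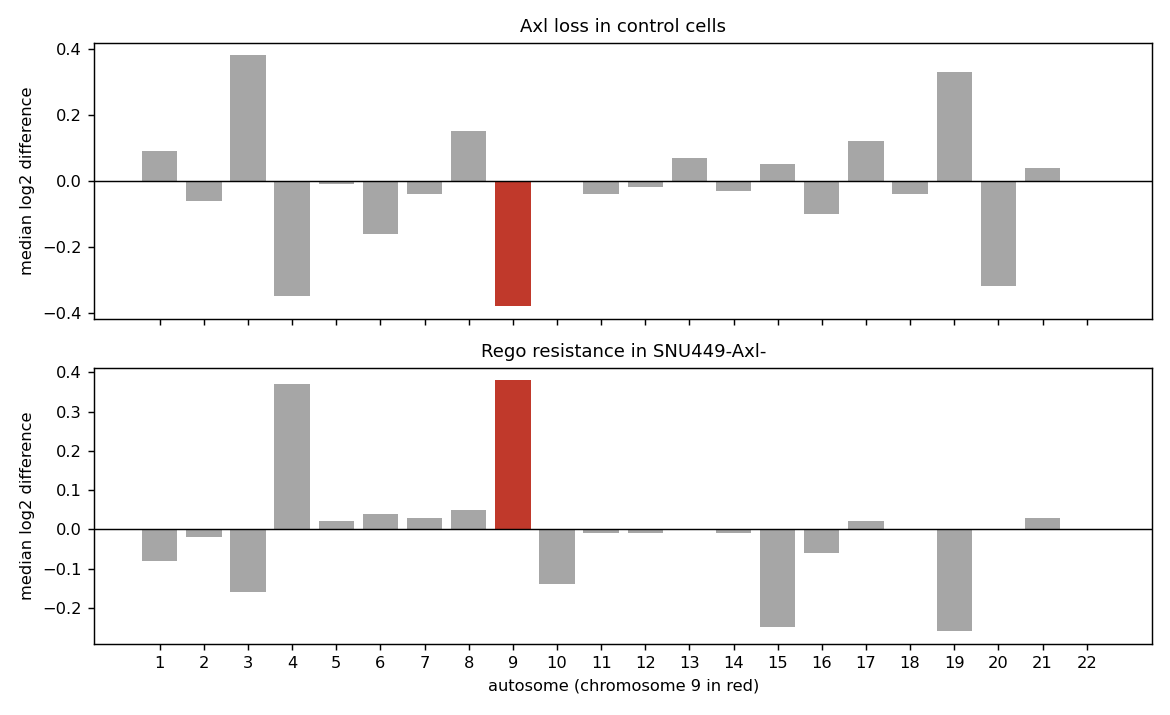
Median log2 difference of expressed protein-coding genes on each autosome (bars from 0) for Axl loss in control cells and for Rego resistance in SNU449-Axl-. Chromosome 9, in red, has the lowest bar in the upper panel (-0.38) and the highest in the lower (0.38), close to chromosome 4 in both.

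The lower levels in SNU449-Axl- control cells were found in members of unrelated functions. Members were put in 8 lists by known role, chosen with results of these data known, and 7 members fell in no list. The counts below stand against 48.8% of expressed protein-coding genes below 0 and 3.43% of all genes called lower. Of 13 members of the secretory pathway, glycosylation and membrane traffic, 13 were below 0 and 4 were called lower (GOLM1, SPTLC1, TBC1D2 and PGAP4), with a median of -0.54. In DNA repair, chromatin and cell division, 12 of 12 were below 0 with a median of -0.46, and SPIN1 and ANP32B were called. The nucleotide excision repair protein XPA (-0.35) and the Fanconi anaemia protein FANCC (-0.35) were not. Of 11 members of RNA processing and translation 10 were below 0, with a median of -0.46 and TEX10 and TDRD7 called.

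All 5 transcription factors and zinc finger proteins were below 0 (median -0.61, ZNF189 and ZNF462 called), as were the 4 of the cytoskeleton and adhesion (-0.73, CTNNAL1 called) and the 4 of metabolism and mitochondria (-0.43, 0 called). Of 9 receptors, signalling proteins and phosphatases 8 were below 0 (-0.30, CARD19 and TRIM14 called). Proteases and cell death was the list without a common direction, with 2 of 4 below 0 and a median of -0.11. Those below were NINJ1, which ruptures the plasma membrane of dying cells (-0.54), and the aminopeptidase AOPEP (-0.27), and those above were CTSL and CTSV. DAPK1, which also has a role in cell death, was counted with the receptors and signalling proteins and had -0.25. Without SNU449 control replicate 3 the medians of the lists lay between -1.13, for the cytoskeleton and adhesion, and -0.35, for proteases and cell death, in which 3 of 4 were then below 0. With Rego resistance in SNU449-Axl-, the medians of the 8 lists lay between 0.21, for RNA processing and translation, and 0.63, for the secretory list, all above 0.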

How the data were processed

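QuantSeq 3′ libraries of 12 samples (4 groups, 3 each) were trimmed with cutadapt 4.0 and aligned to GRCh38 with STAR 2.5.3a by the authors. The deposited library values are a score: variance-stabilized counts after removal of the preparation date effect, returned from log2 and rounded to whole numbers. The deposited mean normalized count (unit signal) is the authors' mean over the libraries of a table. Depth per library is unknown. The authors' fold changes and p-values were not used. The table over all 12 libraries was analysed with limma 3.58.1 in R 4.3.3 on log2(value + 1), with group and replicate number as terms. The number stands in for the preparation date, whose removal had left a mean deviation per number of 0.00126 against 0.122 for a library. p-values were adjusted by Benjamini-Hochberg over 15601 genes and called below 0.05, two-sided. On simulated data for Axl loss in control cells, 200 of 15601 genes were changed by 1 on the log2 scale. This fit recovered 131 of them with 3 false calls. Noise was drawn for each gene alone, so a shift of a whole chromosome within 1 library was not simulated. The false calls therefore do not describe such a shift. Group mean counts were solved by non-negative least squares from the mean counts of 7 tables. No pair of libraries was identical. The named members were the largest called changes of each comparison, those against the region's direction, the most abundant, the first and last, and all others called. Members and lists were chosen with earlier results of these data known. Alternatives were fits without the replicate number, other tables, other centrings, other limits on low values, and leaving out each library. Leaving out SNU449 control replicate 3 for the autosomes, lists and overlaps was chosen after seeing the data. 1 member, counted in the summaries, is not reported here.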

Additional observations from a re-analysis of the deposited data

Results flagged for a closer look

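The Rego effect differed between SNU449 and SNU449-Axl- cells for 6 of the 69 members, all below 0, by the limma interaction term. The p-values were adjusted by Benjamini-Hochberg over all genes, of which 2.92% were called below 0 and 2.95% above. The term equals the Axl difference in control cells minus that in resistant cells, so it is not independent of those comparisons. The difference of the log2 effects (SNU449 minus SNU449-Axl-) was -1.77 for PALM2AKAP2 (SE 0.428, adjusted p = 0.0184), -1.29 for GOLM1 (SE 0.282, 0.00995), -1.24 for CARD19 (SE 0.263, 0.0083), -1.06 for SPTLC1 (SE 0.26, 0.0199), -1.02 for ZNF189 (SE 0.266, 0.029) and -0.90 for PGAP4 (SE 0.257, 0.0452). The calls of CARD19 and GOLM1 held in every fit that left out a library. Those of PALM2AKAP2 and SPTLC1 were lost in 4 of 12 such fits each, that of ZNF189 in 8 and that of PGAP4 in 10. PALM2AKAP2 had its larger change in SNU449, at -1.89, while the other 5 had theirs, 0.59 to 0.80, in SNU449-Axl-, where those of CARD19, SPTLC1 and PGAP4 were called. In GOLM1, CARD19, SPTLC1, ZNF189 and PGAP4 the 3 SNU449 control libraries were above the 3 SNU449-Axl- control libraries without overlap. The lowest against the highest value was 305 against 233, 259 against 161, 225 against 158, 86 against 57 and 182 against 91. In PALM2AKAP2 the libraries overlapped. Of all genes, 13.4% were lower in SNU449-Axl- control without overlap.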

How the results depend on the processing

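Member medians and counts of members called stayed within 1 SD between libraries and within 1.5 times when libraries were centred on the median of all genes, in the other table over all 12 libraries, without the pseudocount, and with genes of a mean count above 30 tested alone. In the last, 3 members were called for Rego resistance in SNU449, where DIRAS2 missed the threshold (adjusted p = 0.0501), 8 for Rego resistance in SNU449-Axl- and 16 for Axl loss in control cells. Without the replicate block, the counts of members called were 18 for Rego resistance in SNU449-Axl-, 23 for Axl loss in control cells and 11 for the interaction, but the simulated data gave 48 false calls with that fit. In the tables of 1 pair of groups, they were 1 for Rego resistance in SNU449, 6 for Axl loss in control cells and 2 for Axl loss in resistant cells, and the median for Rego resistance in SNU449-Axl- was 0.27. With members of a mean count above 100 alone, 1 was called for Rego resistance in SNU449 and 3 in SNU449-Axl-. The called members under this limit in SNU449 were CORO2A (33.97), SHC3 (58.48) and DIRAS2 (38.73), all those that rose. In SNU449-Axl- they were CORO2A, DAPK1 (92.45) and SECISBP2 (87.27).

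Centring on 32 spike-in RNAs moved the median of all genes to 0.18, 0.19 and 0.34 for Rego resistance in SNU449-Axl-, Axl loss in control cells and Axl loss in resistant cells. The member counts became 16, 5 and 9, the medians 0.59, -0.28 and 0.41, and the member levels of SNU449 control, resistant SNU449 and resistant SNU449-Axl- 0.03, -0.07 and 0.30. Relative to all genes the members stood at 0.40, -0.47 and 0.06.

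The member level of SNU449-Axl- control cells was -0.47 on the scale of the solved mean counts. The member level rests on no fit, so the replicate block and the tables of 1 pair of groups do not apply to it.

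Leaving out 1 library at a time gave 1 to 4 called for Rego resistance in SNU449 (median -0.33 to 0.04), 1 to 12 in SNU449-Axl- (0.32 to 0.53), 4 to 28 for Axl loss in control cells (-0.68 to -0.40), 0 to 2 for Axl loss in resistant cells (-0.06 to 0.10) and 3 to 12 for the interaction (-0.75 to -0.45). The member levels ran from 0.12 to 0.28 in SNU449 control, 0.01 to 0.08 in resistant SNU449, -0.36 to -0.29 in SNU449-Axl- control and 0.04 to 0.10 in resistant SNU449-Axl-. Of single members, the Axl difference in control cells ran from -0.18 to 0.34 for DIRAS2, -0.22 to 0.27 for FAM120A, -0.22 to 0.22 for CTSV and -0.05 to 0.54 for CTSL, and the interaction from -0.04 to 0.45 for FAM120A, -0.12 to 0.59 for NCBP1 and -0.18 to 0.44 for TUT7. The cause was not tested. With 3 libraries a group, described as technical, and unknown depth, small differences of single members were not detectable.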
